A study of Solanum lycopersicum with 24 samples.

Results

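The skin (epicarp) and the flesh (mesocarp) of a purple tomato fruit were compared by RNA sequencing after 5 d of light that followed 30 d of development under foil. The comparison rests on the 6 libraries whose titles name these tissues at this time, 3 of epicarp and 3 of mesocarp, out of 24 libraries in the series. All libraries came from Solanum lycopersicum fruit of genotype MT-Aft/atv/hp2, so the controls carry the same alleles: Aft switches on a MYB gene that promotes pigment, atv is the loss of a MYB repressor, and hp2 is a mutation in the light-signalling repressor DET1 that exaggerates responses to light. Flowers were wrapped in foil as they opened, and 30 d later the fruits were sampled directly (0 d), or following exposure to light for 2 d or for 5 d. Control fruits grew in light for 30 d, and each tissue was taken in all 4 conditions. Re-lit fruits at 5 d were thus older than control fruits by the days in light, and light and the removal of the foil cannot be told apart. Whether replicates are separate plants or fruits is not stated in the labels. The p-values therefore measure the spread between libraries only, and that spread may be technical. In the main fit the spread was estimated over all 24 libraries, so a gene not called at 5 d may reflect spread in other conditions. Libraries of a group correlated at 0.871 to 0.937 at 0 d and at 0.952 to 0.979 at 5 d.

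Anthocyanins are purple flavonoid pigments stored in the vacuole. They are built from phenylalanine through the general phenylpropanoid enzymes, then chalcone synthase (CHS) and chalcone isomerase (CHI), then hydroxylases that decorate the flavonoid rings (F3H, F3'H, F3'5'H), and then dihydroflavonol reductase (DFR) and anthocyanidin synthase (ANS), after which sugars and an acyl group are attached and the pigment is moved into the vacuole. A complex of an R2R3-MYB factor, a bHLH factor and a WD40 protein switches the late genes on. The skin is bounded by an epidermis that makes a waxy cuticle, whereas the flesh holds parenchyma and the vascular strands.

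The 6 libraries held 18925789 to 23197867 reads assigned to genes, so that 0 reads in a library allows up to 3 reads, or 0.129 to 0.158 CPM (reads scaled to library size), by counting error alone. Reads of mesocarp replicate 3 were recovered from its TPM values, because no count column bears its name. Levels are CPM and were not compared between genes. Epicarp replicate 3 stood apart from the other epicarp libraries: the 9 epidermal markers measured summed to 4080 CPM in it, against 1008 CPM and 995 CPM in replicates 1 and 2, and its summed anthocyanin genes were the lowest of the epicarp libraries. Mesocarp replicate 3 also had the lowest anthocyanin sum of its tissue. Genes described below as high in epicarp replicate 3 alone are given with their call or log2 difference without that library.

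Of 19620 genes tested with edgeR's quasi-likelihood test and Benjamini-Hochberg adjustment, 1397 were higher in epicarp and 2035 were lower after 5 d of light. These are 7.12% and 10.4% of the genes tested, and 17.5% together. The median log2 difference over all tested genes was -0.01. Without epicarp replicate 2, epicarp replicate 3 or mesocarp replicate 1 the total fell from 3432 to 2162, 2220 and 2270 genes, and it was 2450 to 2667 without any other library. With replicate number as a block, 1288 genes (6.56%) were higher and 1871 (9.54%) lower, or 16.1% in all. The lower set held 365 genes with no read in any epicarp library, and the higher set held 60 with no read in any mesocarp library. Fewer cells of a type and less RNA per cell cannot be told apart in such bulk samples, here and in all that follows.

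The tissue labels were checked first against marker genes. Among the epidermal markers, 8 of 9 tested were higher in epicarp (88.9%, beside 7.12% of all genes) and none was lower. Their median log2 difference was 6.96. With the replicate block 6 were higher. CD3 and GPAT6, among the 8, were not called without epicarp replicate 3. CER6 (Solyc02g085870), which elongates the very long fatty acids of wax, was measured at 370, 412 and 912 CPM in the epicarp libraries and at 3.24, 4.02 and 5.95 CPM in those of mesocarp. Its log2 difference was 6.96 (SE 0.75, adjusted p = 5.79e-06), so that the flesh held 0.78% of the skin's level. CER3 (Solyc03g117800), which acts in alkane formation for wax, stood at 186, 103 and 261 CPM in epicarp and at 0.556, 0.581 and 1.55 CPM in mesocarp, or 0.489% of the skin's level. TTS1 (Solyc12g006530), a triterpenoid synthase of the fruit wax, stood at 168, 152 and 168 CPM against 2.83, 1.59 and 2.11 CPM, or 1.34%. No library of either tissue overlapped the other in these genes, and leaving out any library kept the calls. The mesocarp libraries thus held little RNA of these epidermal genes. Lack of overlap was common, here and for genes named below: it held in 41.9% of all genes tested. Epicarp lay above in 21.2% and mesocarp in 20.7%.

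Genes described as phloem, xylem, sieve element or vascular went the other way. Of 19 tested, 11 were lower in epicarp (57.9%, beside 10.4% of all genes) and none was higher, with a median log2 difference of -2.32. Sieve element occlusion a (Solyc03g111810), a phloem protein, had no read in epicarp and stood at 8.53, 5.60 and 7.67 CPM in mesocarp, which makes it at least 152-fold lower in epicarp when 3 reads are allowed over the 3 libraries. A phloem protein 2-like gene (Solyc02g031740) stood at 0.0497, 0 and 0 CPM in epicarp and at 15.02, 13.7 and 10.3 CPM in mesocarp (log2 difference -9.24, SE 0.95, adjusted p = 1.36e-05). An F-box gene of the phloem protein 2 family (Solyc05g055870) stood at 9.49, 7.96 and 12.8 CPM against 40.2, 36.3 and 72.4 CPM (log2 difference -2.32). Members of this family are similar, and the treatment of reads that match several of them is not stated in the labels. Without any 1 library, 8 or 9 genes of the list were called lower. The summed level of all genes of the list was 269 to 299 CPM in epicarp and 332 to 399 CPM in mesocarp, a smaller contrast than in the called genes.

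**Figure D1:**
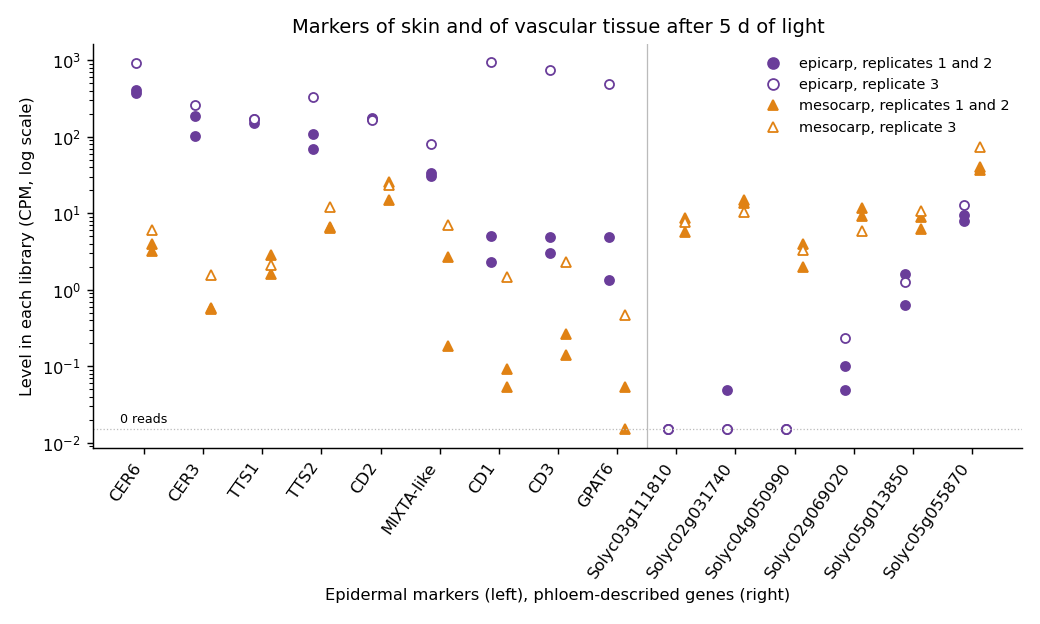
Level in each 5 d library (CPM, logarithmic axis) of the 9 epidermal markers and of the phloem-described genes named by rule; circles are epicarp, triangles mesocarp, open symbols replicate 3, and the dotted line marks 0 reads. Epidermal markers lie above in all epicarp libraries, and CD1, CD3 and GPAT6 are high in epicarp replicate 3 alone. The phloem genes drawn were chosen for no overlap, so their place above in all mesocarp libraries was fixed by the rule. Of 19 vascular genes tested, 13 had all mesocarp libraries above, as did 20.7% of all genes.

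The enzymes and transporters of anthocyanin synthesis were abundant in both tissues, and only F3'H passed edgeR's test. Of 14 genes tested, 1 was higher in epicarp and none was lower, beside 7.12% and 10.4% of all genes. Their median log2 difference was 0.31, and their range was -1.43 to 3.98. The summed level of the list was 39114, 35530 and 20224 CPM in epicarp and 26697, 30020 and 15531 CPM in mesocarp, so that the tissues overlapped. F3'5'H was present only as TPM, so it is not in the summed levels and was tested apart. A second isomerase gene, CHI1, had at most 1 read in any of these libraries.

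CHS1 (Solyc09g091510, chromosome 9, 66873902 to 66876060 on build SL4.0), which makes the first flavonoid, stood at 2556, 2127 and 1182 CPM in epicarp and at 1721, 1778 and 977 CPM in mesocarp. Its log2 difference was 0.37 (SE 0.46, adjusted p = 0.636, 95% interval -0.59 to 1.33), and the libraries of the tissues overlapped. CHS2 (Solyc05g053550), its paralog, stood at 6020, 6498 and 4124 CPM against 2251, 3456 and 1639 CPM (log2 difference 1.15, SE 1.07, adjusted p = 0.509, interval -1.10 to 3.40). All epicarp libraries lay above all mesocarp libraries in CHS2, as they did in 4154 genes (21.2%) of those tested, and CHS2 did not pass. In an edgeR fit of only the groups compared its adjusted p was 0.0601. CHI (Solyc05g010320), which closes the central ring, stood at 276, 240 and 110 CPM in epicarp and at 619, 630 and 417 CPM in mesocarp. Here the flesh lay above the skin in every library, at 266% of its mean, with a log2 difference of -1.43 (SE 0.59, adjusted p = 0.106, interval -2.68 to -0.19). CHI did not pass in edgeR's test, but DESeq2 (adjusted p = 0.0486) and a fit of only the groups compared (0.041) called it lower. CHIL (Solyc05g052240), a non-catalytic relative that enhances chalcone synthesis, stood at 1666, 1469 and 905 CPM against 926, 1036 and 502 CPM (adjusted p = 0.338).

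F3'H (Solyc03g115220, chromosome 3, 59425127 to 59430606), which adds a hydroxyl at the 3' position of the B ring on the way to cyanidin-type pigments and quercetin, stood at 316, 348 and 382 CPM in epicarp and at 4.17, 12.9 and 48.2 CPM in mesocarp. The flesh held 6.24% of the skin's level, and no libraries overlapped. The log2 difference was 3.98 (SE 0.61, adjusted p = 0.000182), it ranged from 3.49 to 5.30 when each library was left out, and each of these 6 fits made the call. F3'5'H (Solyc11g066580), the companion enzyme on the way to the delphinidin-type pigments of purple tomato, stood at 2230, 1883 and 888 TPM in epicarp and at 1165, 1260 and 544 TPM in mesocarp. On the log2(TPM + 1) scale limma gave a difference of 0.74 (SE 0.29, adjusted p = 0.0858). It passed when replicate entered the fit as a block (adjusted p = 0.000756), and also without epicarp replicate 3 (1.14, adjusted p = 0.00502) or without mesocarp replicate 2 (0.96, adjusted p = 0.0496). It did not pass in the other limma fits. Adjusted p was 0.31 with only the groups compared, 0.169 on log2(TPM + 0.1) and 0.105 with all genes above 0. Without epicarp replicate 1 or 2, or mesocarp replicate 1 or 3, it was 0.0766 to 0.403. F3H (Solyc02g083860), which acts before both, stood at 4634, 3987 and 2068 CPM against 3165, 3837 and 1819 CPM, or 82.5% of the skin's level in the flesh.

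DFR (Solyc02g085020, chromosome 2, 46065285 to 46067689), the first enzyme committed to coloured products, stood at 3719, 3213 and 1844 CPM in epicarp and at 2816, 3046 and 1742 CPM in mesocarp. Its log2 difference was 0.18 (SE 0.27, adjusted p = 0.70, interval -0.39 to 0.76), with overlapping libraries. ANS (Solyc08g080040, chromosome 8, 61491075 to 61492935) stood at 3565, 3021 and 1488 CPM in epicarp and at 3252, 3780 and 1909 CPM in mesocarp, which puts the flesh at 111% of the skin's level (log2 difference -0.17, interval -0.91 to 0.57). The DFR interval shares 195 bases with Solyc02g085030 and the ANS interval shares 276 bases with Solyc08g080030, so reads in those stretches are uncertain. The sign changed with the libraries for both genes: DFR was at -0.06 without epicarp replicate 1 and at -0.03 without mesocarp replicate 3, and ANS was at 0.14 without epicarp replicate 3 and at 0.04 without mesocarp replicate 2.

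The genes that finish and store the pigment gave no call. The flesh held 66.5% of the skin's level of the glucosyltransferase A3GT (Solyc10g083440), 71.2% of the rhamnosyltransferase RT (Solyc09g059170) and 79.2% of the glucosyltransferase 5GT (Solyc12g098590). It held 95.03% of the acyltransferase AAC (Solyc12g088170), 79.3% of the glutathione S-transferase GST (Solyc02g081340) that carries anthocyanin to the vacuole, and 79.6% of the vacuolar MATE transporter MTP77 (Solyc03g025190). MTP77, for instance, stood at 3808, 3623 and 1961 CPM in epicarp and at 2853, 3085 and 1540 CPM in mesocarp. The 6 genes had adjusted p from 0.436 to 0.956. A fit limited to the 6 libraries with replicate number as a block, chosen after seeing the data, called CHS2, CHIL and A3GT higher beside F3'H (log2 differences 1.18, 0.69 and 0.55) and CHI lower (-1.53).

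**Figure D2:**
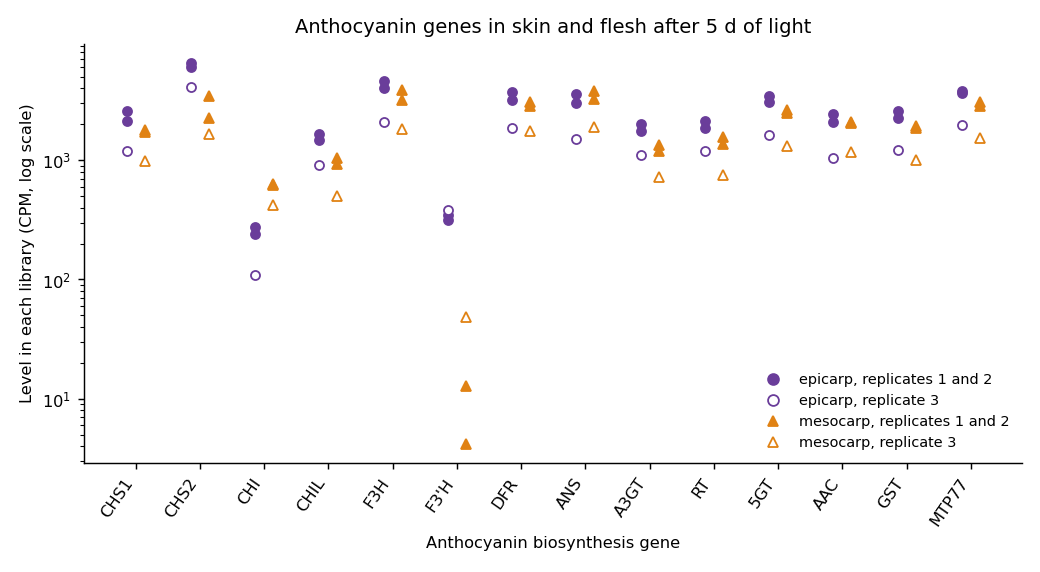
Level in each 5 d library (CPM, logarithmic axis) of the 14 anthocyanin biosynthesis genes tested, in pathway order; circles are epicarp, triangles mesocarp, open symbols replicate 3. In F3'H the mesocarp libraries (4.17 to 48.2 CPM) lie far below the epicarp libraries (316 to 382 CPM), in CHI they lie above, and in most other genes replicate 3 of both tissues is lowest.

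The regulators of the pathway gave no call between the tissues in edgeR's test. Of 8 tested, none was higher and none lower, beside 7.12% and 10.4% of all genes. Their median log2 difference was 0.66. AN2-like (Solyc10g086290, chromosome 10, 64316975 to 64318348), the R2R3-MYB activator held responsible for the Aft trait, stood at 1198, 1256 and 854 CPM in epicarp and at 588, 706 and 613 CPM in mesocarp (log2 difference 0.77, SE 0.71, adjusted p = 0.502, interval -0.72 to 2.26), and it passed when only the groups compared were fitted (0.0387). Its neighbours in the same cluster had few reads or none: AN2 (Solyc10g086250) stood at 0.199 to 0.663 CPM in epicarp and at up to 0.0464 CPM in mesocarp, and ANT1 and ANT1-like had no read in any of the 6 libraries. AN1 (Solyc09g065100), the bHLH partner, stood at 548, 375 and 348 CPM against 375, 267 and 239 CPM (log2 difference 0.51, adjusted p = 0.396).

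The other bHLH factor, JAF13 (Solyc08g081140), stood at 36.2 to 39.3 CPM in epicarp and at 34.3 to 47.4 CPM in mesocarp, with an interval of -0.47 to 0.18 for its log2 difference. MYB-ATV (Solyc07g052490), the repressor lost in atv, stood at 114, 86.4 and 62.3 CPM against 80.5, 54.9 and 41.7 CPM. The WD40 gene AN11 (Solyc03g097340) stood at 162, 132 and 93.1 CPM against 115, 97.6 and 77.8 CPM. MYB76 (Solyc05g008250), a repressor-type R2R3-MYB, stood at 105, 92.6 and 36.0 CPM against 34.8, 46.1 and 11.6 CPM. These last 2 genes passed with the replicate block (adjusted p = 0.0474 and 0.0315) and without epicarp replicate 3 (0.0184 and 0.0486), and MYB76 also with limma on log2(TPM + 1) (0.0476). WRKY44 (Solyc10g084380), a factor of the same regulatory network, stood at 157, 116 and 119 CPM in epicarp and at 44.7, 30.3 and 29.6 CPM in mesocarp; no libraries overlapped, with a log2 difference of 1.88 (SE 0.67, adjusted p = 0.0604). WRKY44 passed with limma on log2(TPM + 1) and with only the groups compared (adjusted p = 0.00328 in the latter). Limited to the 6 libraries with the block, AN2-like, AN1, AN11, MYB-ATV, MYB76 and WRKY44 were called higher in epicarp, by 0.36 to 1.88 on the log2 scale.

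Upstream of the flavonoids, none of 10 tested phenylpropanoid genes was called higher or lower by edgeR's test, beside 7.12% and 10.4% of all genes. Their median log2 difference was 0.36. Phenylalanine ammonia-lyase (PAL) opens the pathway, and its copy Solyc09g007920 stood at 21260, 18840 and 11660 CPM in epicarp and between 11210 and 21120 CPM in mesocarp, with overlap (log2 difference 0.12, interval -0.76 to 1.00). The copies Solyc09g007900 and Solyc10g086180 were in the flesh at 78.8% and 102% of the skin's level, and Solyc05g056170 at 56.3%. The copies are close paralogs, so reads may be split between them. C4H (Solyc06g150137), which hydroxylates cinnamate, stood at 665, 501 and 296 CPM against 741, 632 and 536 CPM, and without epicarp replicate 1 it was called lower in epicarp. Another C4H gene (Solyc05g047530, sharing 223 bases with a neighbour) stood at 2.65 to 5.79 CPM against 0.302 to 1.96 CPM. The 4CL genes Solyc03g117870 and Solyc06g068650, which activate coumarate, were in the flesh at 116% and 64.9% of the skin's level. The block fit on the 6 libraries, chosen after seeing the data, called Solyc05g056170, Solyc05g047530 and Solyc06g068650 higher in epicarp (adjusted p = 0.0219, 0.0197 and 0.0439), and limma on log2(TPM + 1) called Solyc05g047530 (0.0063).

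The flavonol branch, which draws on the same precursors, did differ. FLS (Solyc11g013110), flavonol synthase, stood at 1058, 965 and 1090 CPM in epicarp and at 42.3, 58.5 and 131 CPM in mesocarp, with a log2 difference of 3.72 (SE 0.67, adjusted p = 0.000855). MYB12 (Solyc01g079620), the MYB factor that activates flavonol genes in tomato skin, stood at 24.2, 26.2 and 40.3 CPM against 2.64, 3.54 and 11.7 CPM, with a log2 difference of 2.31 (SE 0.44, adjusted p = 0.00127). Both genes of the branch were thus higher, and both calls were made without any 1 library. All epicarp libraries lay above all mesocarp libraries in both, as in 21.2% of all genes. The flesh held 7.46% of the skin's FLS and 19.7% of its MYB12.

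The same contrast in light-grown fruit gave another picture for the anthocyanin genes. There, 2595 genes (13.2%) were higher in epicarp and 2664 (13.6%) lower, 26.8% together, and all 14 anthocyanin biosynthesis genes tested were among the higher ones, with a median log2 difference of 8.54. DFR stood at 1535 ± 111 CPM (SD, n = 3) in control epicarp and at 2.24 ± 0.29 CPM in control mesocarp. Summed over the list, control epicarp lay between 17742 and 20029 CPM and control mesocarp between 90.8 and 216 CPM. The mesocarp at 5 d, at 15531 to 30020 CPM, thus lay above light-grown mesocarp in every library and overlapped light-grown epicarp.

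The difference between these differences was tested as an interaction. Over all genes, 191 passed (0.973%), of which 42 (0.214%) were higher at 5 d than in control and 149 (0.759%) lower. Without mesocarp replicate 2 at 5 d the total was 108, and it was 104 to 122 without any 1 of epicarp replicates 1 and 2 at 5 d, the 3 control epicarp libraries and control mesocarp replicates 2 and 3. Of the 14 anthocyanin genes, 13 were among the lower ones, and 11 to 13 were in fits without any 1 library. DFR had an interaction of -9.30 (SE 0.46, adjusted p = 2.85e-10), CHS1 of -10.27 and MTP77 of -9.87. F3'H, in contrast, had -0.32 (SE 0.77, adjusted p = 0.948), since it stood at 113 ± 44.0 CPM in control epicarp and at 5.98 ± 1.64 CPM in control mesocarp. FLS (0.40, adjusted p = 0.937) and MYB12 (0.27, adjusted p = 0.938) did not pass either.

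Among regulators, AN1 (-8.59), MYB-ATV (-5.67), MYB76 (-6.24) and WRKY44 (-5.07) had a smaller tissue difference at 5 d than in control. AN1 stood at 218 ± 16.7 CPM in control epicarp and at 0.419 ± 0.282 CPM in control mesocarp. AN2-like, by contrast, stood at 832 ± 150 CPM and at 149 ± 34.8 CPM in the control tissues, and its interaction of -1.78 did not pass (adjusted p = 0.522). The PAL genes Solyc09g007920, Solyc09g007900 and Solyc10g086180 (-4.21, -4.28 and -5.03) and the C4H gene Solyc06g150137 (-1.89) passed as well. WRKY44 passed in 2 and CHI in 1 of 12 fits that each left out a library of these groups, and CHS2 in 7 of 12. With the replicate block the adjusted p was 0.0625, 0.0664 and 0.057 for these 3, which were then not called. In the fits without a library, the other interactions with control called among the anthocyanin genes, regulators, PAL and C4H named above passed in 12 of 12.

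**Figure D3:**
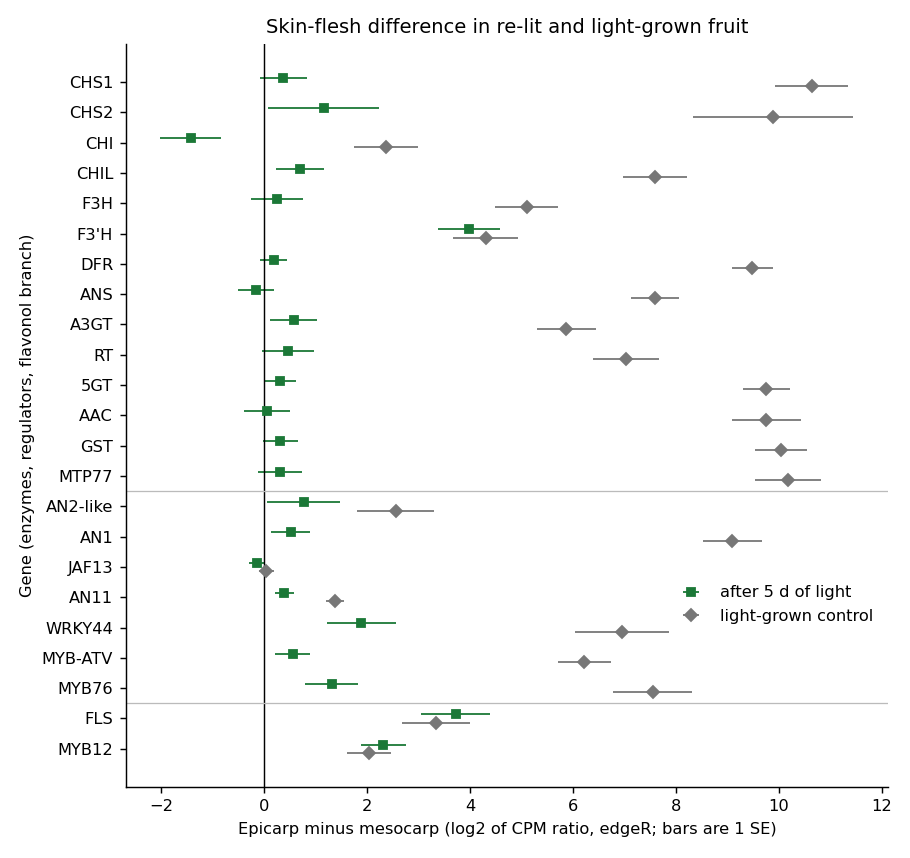
Log2 difference, epicarp minus mesocarp (edgeR, bars are 1 SE), after 5 d of light (green squares) and in light-grown control (grey diamonds) for enzymes, regulators and the flavonol branch. The enzymes other than F3'H lie between -1.43 and 1.15 at 5 d and above 2 in control, while F3'H, FLS and MYB12 hold like values in both.

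At 0 d, directly after the cover, the list summed to 910 to 2052 CPM in epicarp and to at most 204 CPM in mesocarp. Between 0 d and 5 d, 38 genes (0.194%) changed their tissue difference, and F3H (-4.18, adjusted p = 0.029), A3GT (-4.01, adjusted p = 0.0191) and the PAL gene Solyc09g007900 (-2.69, adjusted p = 0.0446) were among the 21 (0.107%) in which it fell. The 0 d means of F3H were 369 CPM (epicarp) and 17.8 CPM (mesocarp), and those of A3GT were 337 and 14.9 CPM. These calls were made in 6, 7 and 3 of 12 fits without a library. With the replicate block 373 genes passed in place of 38, CHS1, CHS2 and CHIL among them (adjusted p = 0.0167, 0.000348 and 0.0317), whereas with only the 4 groups compared 1 gene passed. At 2 d the list summed to 46609 to 50974 CPM in epicarp and to 28973 to 34320 CPM in mesocarp, and no anthocyanin gene had an interaction between 2 d and 5 d.

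**Figure D4:**
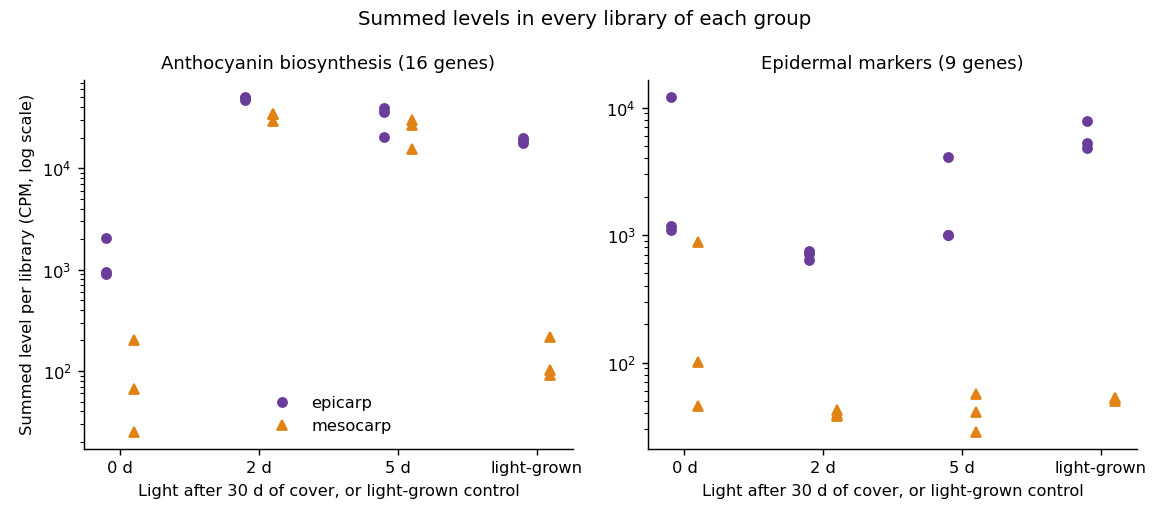
Summed level per library (CPM, logarithmic axis) of the anthocyanin biosynthesis list and of the epidermal markers in each tissue and condition, with 1 point for each of 3 libraries. F3'5'H, present only as TPM, is not in the sum, although the 16 genes of the panel title count it. Anthocyanin genes in mesocarp reach 15531 to 30020 CPM at 5 d against 90.8 to 216 CPM in light-grown fruit, while epidermal markers in mesocarp are at 28.5 to 56.5 CPM at 5 d.

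The calls at 5 d were in part those of the other conditions. Of the 1397 genes higher in epicarp, 909 were also higher in light-grown epicarp, which is 65.1% of the first list and 35% of the second. Of the 2035 lower genes, 1433 were also lower there, or 70.4% and 53.8%. At 2 d the shared calls were 855 higher (61.2% and 53.2%) and 1407 lower (69.1% and 69.3%), beside 8.2% and 10.3% of all genes called there (18.5%). At 0 d they were 756 higher (54.1% and 43.9%) and 1120 lower (55% and 59.7%), beside 8.78% and 9.57% (18.3%). Opposite calls in light-grown fruit were 5 and 7.

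Most cuticle genes were higher in the skin. Of 15 tested in the full list, 13 were higher in epicarp (86.7%, beside 7.12% of all genes) and none lower. Their median log2 difference was 4.56. Without mesocarp replicate 1 or mesocarp replicate 3 the count was 8, without epicarp replicate 3 or mesocarp replicate 2 it was 9, and with the replicate block it was 9. CD2 (Solyc01g091630), a homeodomain regulator of cutin, stood at 177, 170 and 167 CPM in epicarp and at 15.02, 25.2 and 23.6 CPM in mesocarp (log2 difference 2.98, SE 0.20, adjusted p = 2.82e-08). TTS2 (Solyc12g006520), a triterpenoid synthase beside TTS1, stood at 70.0, 110 and 326 CPM against 6.44, 6.66 and 11.98 CPM. MIXTA-like (Solyc02g088190), a MYB factor of epidermal cell shape and cuticle, stood at 30.4, 33.4 and 81.1 CPM against 0.185, 2.64 and 7.07 CPM. Woolly (Solyc02g080260), a homeodomain factor of trichomes, stood at 6.11, 3.86 and 2.89 CPM against 0, 0.370 and 0.215 CPM (log2 difference 4.42).

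Cutin synthesis genes stood apart within this group. CD1 (Solyc11g006250), the enzyme that polymerises cutin outside the cell, stood at 2.29, 4.97 and 937 CPM in epicarp and at 0.0927, 0.0528 and 1.47 CPM in mesocarp. CD3 (Solyc08g081220), a cytochrome P450 of cutin monomers, stood at 2.98, 4.83 and 743 CPM against 0.139, 0.264 and 2.29 CPM. GPAT6 (Solyc09g014350), which builds glycerol-linked cutin precursors, was at 1.34, 4.92 and 485 CPM against 0, 0.0528 and 0.474 CPM. All 3 were high in epicarp replicate 3 alone, though each epicarp library lay above each mesocarp library. CD1 did not pass (adjusted p = 0.0578). CD3 (adjusted p = 0.0407) and GPAT6 (adjusted p = 0.0392) passed, but not with the replicate block (0.113 and 0.0946), and not without epicarp replicate 3 or any mesocarp library. Without epicarp replicate 3 the log2 difference of CD1 was 2.69 in place of 9.06. In light-grown epicarp CD1 stood at 1489 ± 744 CPM and CD3 at 1357 ± 360 CPM. ABCG32 (Solyc03g019760), a cutin precursor transporter, stood at 239, 199 and 203 CPM against 101.0, 127 and 65.3 CPM and was not called without epicarp replicate 1, mesocarp replicate 1 or mesocarp replicate 3. Its tissue difference at 5 d was smaller than in control by 2.85 on the log2 scale (adjusted p = 0.00204 in edgeR's interaction test). ABCG32 is named here after its values were seen, as the 1 cuticle gene with an interaction. Of all genes, 0.759% had a lower interaction with control.

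Lipid transfer and GDSL lists held calls in both directions. Of 43 lipid transfer protein genes tested, 9 were higher and 5 lower (20.9% and 11.6%), and of 61 GDSL esterase and lipase genes, 11 were higher and 7 lower (18% and 11.5%). Of all genes, 7.12% were higher and 10.4% lower, so the lower shares lay near the background. Lipid transfer proteins carry lipids through the cell wall, and the gene Solyc10g075070 stood at 2309, 3528 and 7819 CPM in epicarp and at 8.11, 9.04 and 31.9 CPM in mesocarp (log2 difference 8.09, SE 1.12, adjusted p = 7.8e-05). Its neighbours Solyc10g075103 (7.92 to 47.1 CPM against 0 to 0.431 CPM) and Solyc10g075110 (10.3 to 22.6 CPM against 0 to 0.0528 CPM) were also higher, and reads may be split within the cluster. A GDSL gene, Solyc04g081755, stood at 70.3, 76.7 and 149 CPM against 0.0464, 0.423 and 0.129 CPM (log2 difference 8.93, SE 0.69). R2R3MYB factor 30 (Solyc06g069850) stood at 16.8, 28.6 and 63.7 CPM against 0.185, 0.423 and 0.431 CPM, with a log2 difference of 6.65. Without epicarp replicate 3 the GDSL count was 7, and the count of lower lipid transfer genes was 1 to 3 without any library but mesocarp replicate 3.

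Defence and wound genes were found on both sides. Of 83 pathogenesis-related genes, 8 were higher and 12 lower (9.64% and 14.5%, beside 7.12% and 10.4% of all genes). Of 35 wound and jasmonate genes, 8 were higher and 3 lower (22.9% and 8.57%). The higher wound and jasmonate calls were 5 without epicarp replicate 2, epicarp replicate 3, mesocarp replicate 1 or mesocarp replicate 2, and the lower ones were none without epicarp replicate 2 or 3 and 1 without epicarp replicate 1 or mesocarp replicate 2. A gene described as STH-2-like (Solyc09g090980) stood at 1377, 1731 and 3462 CPM in epicarp and at 15.4, 21.9 and 44.4 CPM in mesocarp (log2 difference 6.29). A cysteine proteinase inhibitor (Solyc09g097850) stood at 33.2, 57.2 and 110 CPM against 11.9, 8.72 and 12.7 CPM (log2 difference 2.55, adjusted p = 0.000406). A lipoxygenase (Solyc01g099160), which oxidises fatty acids, stood at 267, 245 and 278 CPM against 12.4, 17.3 and 43.2 CPM, but its interval shares 2100 bases with Solyc01g099170, so its reads are uncertain. An osmotin gene (Solyc11g066130), an antifungal protein of the thaumatin family, stood at 0, 0.338 and 0.426 CPM in epicarp and at 24.1, 26.5 and 28.3 CPM in mesocarp (log2 difference -6.68, SE 0.77). The pathogenesis-related counts fell to 3 higher and 5 lower without epicarp replicate 3, and were within 4 to 8 and 6 to 9 without any other library.

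Ethylene and ripening genes differed in a few members. Of 20 ripening genes tested, 1 was higher and 4 were lower (5% and 20%, beside 7.12% and 10.4% of all genes). Their median log2 difference was -0.30. The higher gene was ACS4 (Solyc05g050010), an enzyme of ethylene synthesis, at 0.745, 1.21 and 0.757 CPM in epicarp and with no read in mesocarp, or at least 19.2-fold higher. A further ACC synthase gene (Solyc08g081550), outside the list, stood at 58.6, 44.1 and 22.6 CPM against 0, 0.0528 and 0.129 CPM (log2 difference 9.24, SE 0.89, adjusted p = 1.86e-06). E8 (Solyc09g089580), an ethylene-responsive dioxygenase of ripening fruit, stood at 41.2, 8.78 and 12.5 CPM in epicarp and at 829, 381 and 875 CPM in mesocarp, with a log2 difference of -5.07 (SE 0.96, adjusted p = 0.00126). CEL2 (Solyc09g010210), a cellulase of softening, stood at 0, 0.193 and 0 CPM against 1.99, 6.61 and 3.79 CPM. The other lower genes were LOXC (Solyc01g006540), a lipoxygenase of fruit volatiles, at 1.99, 2.37 and 0.189 CPM against 33.0, 147 and 34.9 CPM, and EXP1 (Solyc06g051800), an expansin of softening, at 0 to 0.149 CPM against 0.690 to 2.55 CPM. LOXC was called without mesocarp replicate 1 or 3 and in no other fit without a library, and EXP1 without epicarp replicate 1 or mesocarp replicate 3. E8 and CEL2 were called without any 1 library, while the count of lower genes was 2 without epicarp replicate 2 or 3 or mesocarp replicate 2.

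Of 15 carotenoid pathway genes tested, 3 were lower (20%) and none was higher, in every fit without a library. Of all genes, 10.4% were lower and 7.12% higher. CHYB1 (Solyc06g036260), a beta-carotene hydroxylase, stood at 6.21, 9.85 and 10.4 CPM in epicarp and at 29.6, 49.8 and 41.0 CPM in mesocarp (log2 difference -2.22, SE 0.30, adjusted p = 5.95e-05). CHYB2 (Solyc03g007960), a second hydroxylase, stood at 1.49, 1.11 and 1.80 CPM against 12.6, 5.23 and 8.67 CPM. CYCB (Solyc06g074240), the chromoplast lycopene cyclase, had no read in epicarp and 2.23, 1.90 and 2.20 CPM in mesocarp, or at least 43.8-fold less.

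Photosynthesis genes gave few calls between the tissues at 5 d. Of 33 chlorophyll a/b-binding antenna genes, 2 were lower and none higher, with a median of -0.40; of 40 photosystem genes, 1 was higher and none lower, with a median of -0.32. None of 15 chloroplast regulators and chlorophyll synthesis genes was called. Of all genes at 5 d, 7.12% were higher and 10.4% lower. In light-grown fruit, 17 antenna and 14 photosystem genes were higher in epicarp, beside 13.2% of all genes. An interaction with light-grown control was called in 3 antenna genes, all lower at 5 d, beside 0.759% of all genes. At 0 d, 15 antenna and 17 photosystem genes were lower in epicarp and 0 and 1 higher (medians -1.18 and -0.96), beside 9.57% and 8.78% of all genes. One antenna gene, Solyc03g005770, stood at 3.43, 11.8 and 11.9 CPM in epicarp at 5 d and at 25.03, 85.6 and 90.7 CPM in mesocarp (log2 difference -2.92, adjusted p = 0.0115). In control it stood at 59.4 ± 16.4 CPM in epicarp and at 9.15 ± 2.45 CPM in mesocarp, and the interaction was -5.69 (adjusted p = 0.00952). Both antenna calls at 5 d were lost without epicarp replicate 1, and the other of them was lost without epicarp replicate 2, epicarp replicate 3 or mesocarp replicate 3. The photosystem gene was a PsbP family member (Solyc08g043180) at 28.5, 34.0 and 37.6 CPM against 14.0, 21.03 and 24.5 CPM, not called without epicarp replicate 2 or 3 or mesocarp replicate 1.

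Light-signalling genes gave 3 higher and 2 lower calls among 21 tested (14.3% and 9.52%, beside 7.12% and 10.4% of all genes). PHYB1 (Solyc01g059870), a phytochrome that senses red light, stood at 24.8, 23.8 and 33.8 CPM in epicarp and at 38.8, 39.8 and 41.4 CPM in mesocarp (log2 difference -0.57, SE 0.14, adjusted p = 0.00766). PIF4 (Solyc07g043580), a bHLH factor bound by phytochrome, stood at 26.1, 22.7 and 27.3 CPM against 37.5, 35.03 and 45.4 CPM (log2 difference -0.66). Its relatives were higher in epicarp: PIF3 (Solyc01g102300) stood at 281, 266 and 311 CPM against 185, 159 and 167 CPM, with a log2 difference of 0.72. PIF1a (Solyc09g063010) had a log2 difference of 0.92 and PIF1b (Solyc06g008030) of 1.17, without overlap of the libraries. The 3 higher calls were not all made in every fit without a library: 1 was left without epicarp replicate 2 or mesocarp replicate 1, and none without mesocarp replicate 2.

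Sugar, starch and wall lists held lower genes, and the wall lists held higher ones too. LIN5 (Solyc09g010080), a cell-wall invertase that splits sucrose, had no read in epicarp and 4.31, 3.65 and 2.63 CPM in mesocarp, or at least 72.3-fold less. AGPS1 (Solyc07g056140), a subunit of the starch enzyme ADP-glucose pyrophosphorylase, stood at 130, 168 and 189 CPM against 373, 345 and 378 CPM (log2 difference -1.20), and was not called without epicarp replicate 1. These were the 2 lower genes of 7 in their list, and none was higher. Of 47 expansin and xyloglucan genes, 3 were higher and 10 lower, and of 59 pectin enzyme genes 4 were higher and 7 lower. Beside 7.12% and 10.4% of all genes, these were 6.38% and 21.3% of the first list and 6.78% and 11.9% of the second. A xyloglucan endotransglucosylase (Solyc01g005120), which cuts and joins wall chains, stood at 0.149, 0.193 and 0.284 CPM in epicarp and at 10.2, 6.39 and 8.71 CPM in mesocarp (log2 difference -5.33, SE 0.57). Expansin12 (Solyc05g007830) stood at 0.0994, 0.0483 and 0 CPM against 3.34, 9.99 and 5.30 CPM. A pectinesterase (Solyc12g098340) stood at 6.16, 4.78 and 7.19 CPM against 73.0, 54.5 and 27.3 CPM (log2 difference -3.13). Lower expansin and xyloglucan calls were 5 without epicarp replicate 2 and 6 without mesocarp replicate 1, and higher ones were 5 without epicarp replicate 1 and 1 without epicarp replicate 3 or mesocarp replicate 2. Higher pectin calls were 2 without epicarp replicate 3, mesocarp replicate 2 or mesocarp replicate 3 and 1 without mesocarp replicate 1.

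Lignin-branch genes held calls in both directions, with 2 higher and 7 lower of 32 (6.25% and 21.9%, beside 7.12% and 10.4% of all genes). A caffeoyl-CoA O-methyltransferase (Solyc10g050160), which methylates lignin precursors, stood at 0.0497, 0 and 0.0473 CPM in epicarp and at 8.20, 7.03 and 8.54 CPM in mesocarp (log2 difference -7.73). A cinnamyl alcohol dehydrogenase (Solyc01g107590), the last step before lignin monomers, stood at 1.79, 1.45 and 4.31 CPM against 38.7, 23.1 and 20.95 CPM. A laccase (Solyc04g058000), which oxidises phenolic compounds, stood at 7.80, 8.69 and 6.53 CPM in epicarp and at 0.0464, 0.0528 and 0.388 CPM in mesocarp (log2 difference 5.44, SE 0.87). Without a library, the counts ran from 1 to 2 higher and from 4 to 5 lower, with 4 lower without epicarp replicate 1 or 3 or mesocarp replicate 1.

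Transcription factor families and growth genes held members on both sides. MYB factors gave 11 higher and 15 lower of 100, WRKY factors 4 and 4 of 44, NAC factors 3 and 7 of 50, and auxin response genes 8 and 21 of 111. Beside the 7.12% and 10.4% of all genes, the higher shares were 6% to 11% and the lower ones 9.09% to 18.9%. Genes described as the MYB factor APL, known in Arabidopsis for phloem identity, were lower in epicarp in 3 cases: Solyc05g007890 and Solyc12g017370 had no read there and 4.07 to 7.42 CPM in mesocarp, and Solyc10g085620 stood at 0 to 0.0994 CPM against 4.54 to 10.3 CPM. NAC domain protein 45 (Solyc08g077110) stood at 0.199, 0 and 0 CPM in epicarp and at 8.34, 21.5 and 8.10 CPM in mesocarp, whereas the NAC gene Solyc02g088180 stood at 8.69, 7.43 and 7.005 CPM against 0, 0.264 and 0.0431 CPM. IAA26 (Solyc03g121060), an auxin-response repressor, stood at 0.298, 0.0483 and 0 CPM against 4.22, 4.28 and 5.69 CPM, and Auxin Efflux Facilitator 9 (Solyc10g078370) at 0.0497, 0.145 and 0.0473 CPM against 3.89, 2.70 and 1.68 CPM. Lower MYB calls were 7 without epicarp replicate 2 or 3, and higher auxin calls were 5 without mesocarp replicate 2. WRKY calls were 1 higher and 1 lower without epicarp replicate 2, 2 and 2 without epicarp replicate 3 or mesocarp replicate 2, and 1 and 2 without mesocarp replicate 1.

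The remaining lists gave the following counts, beside 7.12% higher and 10.4% lower of all genes. Seed genes gave 1 higher and 14 lower of 72, heat shock proteins 0 and 7 of 70, cytosolic ribosomal proteins 10 and 6 of 195, and histones and cyclins 6 and 9 of 115. Aquaporins gave 0 and 2 of 5, terpene synthases 0 and 1 of 5, and the glycoalkaloid pathway 0 and 1 of 6. A class VI heat shock protein (Solyc07g064020) had no read in epicarp and 9.83, 8.14 and 8.28 CPM in mesocarp, or at least 181-fold less. Cyclin D1 (Solyc05g006050), which drives entry into the cell cycle, stood at 5.37, 7.87 and 11.97 CPM against 22.9, 29.2 and 36.5 CPM (log2 difference -1.85). An aquaporin (Solyc01g094690), a water channel, stood at 9.09, 15.9 and 24.9 CPM against 52.3, 36.6 and 53.5 CPM (log2 difference -1.55). GAME11 (Solyc07g043420), a dioxygenase of glycoalkaloid synthesis, stood at 36.4, 48.5 and 78.0 CPM against 104, 88.7 and 93.2 CPM, and was not called without epicarp replicate 1 or 2. Lower seed calls were 7 or 8 without any 1 epicarp library or mesocarp replicate 1, and lower heat shock calls were 4 without epicarp replicate 2 or 3. Higher ribosomal calls were 5 without epicarp replicate 2, epicarp replicate 3 or mesocarp replicate 2, and lower ones were 1 or 2 without any 1 library but epicarp replicate 1. Lower histone and cyclin calls were 4 or 5 without any 1 library but mesocarp replicate 3, and higher ones were 3 without epicarp replicate 2 and 2 without mesocarp replicate 3. Aquaporin calls were 1 without epicarp replicate 1, epicarp replicate 3 or mesocarp replicate 3, and the terpene synthase was not called without epicarp replicate 1, epicarp replicate 2 or mesocarp replicate 3.

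**Figure D5:**
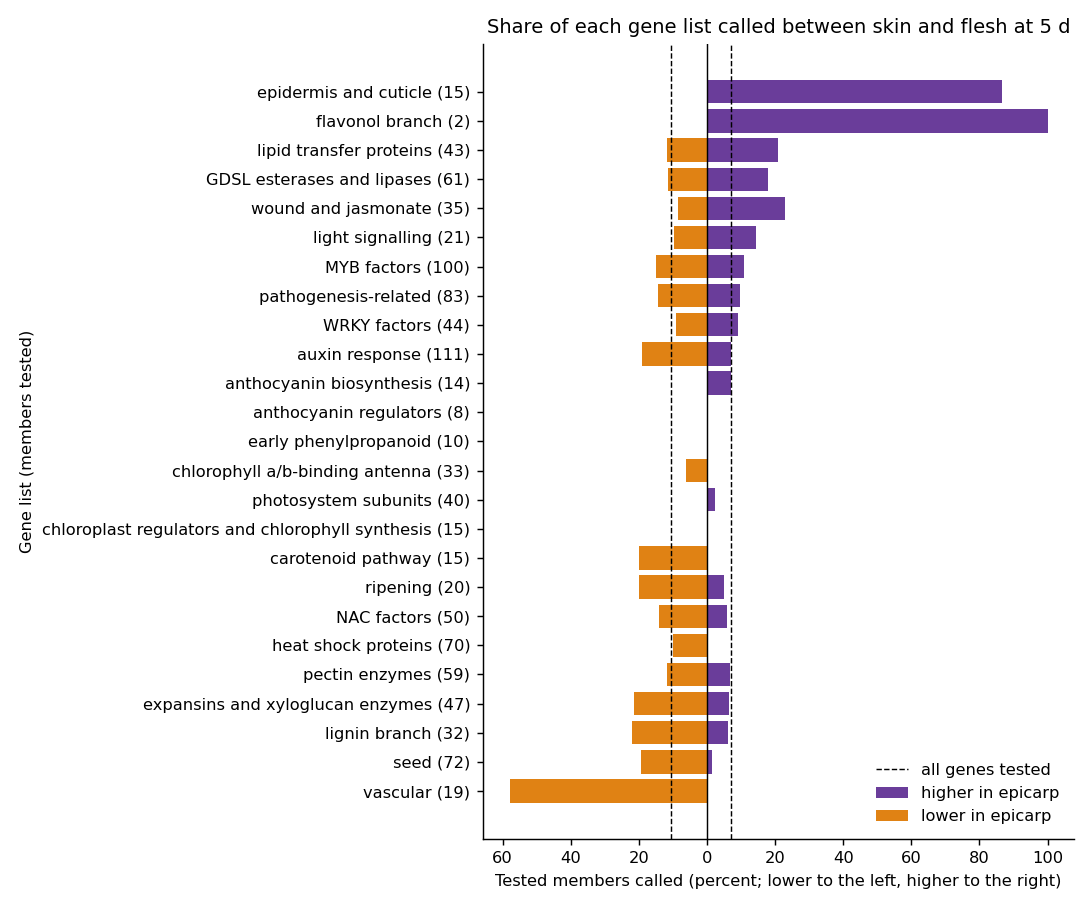
Percentage of the tested members of each list drawn called higher (right) or lower (left) in epicarp at 5 d, with the number tested in brackets and dashed lines at the 7.12% and 10.4% of all genes. The lists of sugar and starch, glycoalkaloid, aquaporin, terpene synthase, cytosolic ribosomal, and histone and cyclin genes are not drawn. Cuticle genes reach 13 of 15 on the right and vascular genes 11 of 19 on the left, and the anthocyanin lists lie at or inside the lines.

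Outside the lists, genes were named for the largest differences, with at least 10 CPM in the higher tissue and no overlap. Few or no reads in the other tissue thus largely follow from the rule. A pleiotropic drug resistance transporter (Solyc05g055330) stood at 78.8, 62.8 and 90.0 CPM in epicarp and at 0.464, 0.264 and 0.172 CPM in mesocarp (log2 difference 7.96, SE 0.58, adjusted p = 9.72e-08). A glycine-rich protein (Solyc09g097780) stood at 312, 193 and 402 CPM against 0.232, 0.317 and 1.29 CPM (log2 difference 8.87). A GMC oxidoreductase (Solyc06g035580) stood at 1.54, 13.6 and 561 CPM against 0.0464, 0.106 and 0.388 CPM, so that it, like CD1, was high in epicarp replicate 3 alone, and it was not called without that library or any mesocarp library, or with the replicate block (adjusted p = 0.0585). On the flesh side, a WAT1-related transporter (Solyc11g012930) had no read in epicarp and 88.3, 99.6 and 103 CPM in mesocarp, or at least 2001-fold less. The factor TGA7 (Solyc12g056860) at 21.5 to 48.0 CPM, a vacuolar iron transporter-like gene (Solyc04g150162) at 25.8 to 41.2 CPM and a glutamine synthase gene (Solyc04g014510) at 4.70 to 32.0 CPM in mesocarp likewise had no read in epicarp, or at least 684-fold, 682-fold and 327-fold less.

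Some genes outside the pathway changed their tissue difference against light-grown fruit. Among those with at least 10 CPM in some group, a glycosyltransferase gene (Solyc12g098580, chromosome 12, 65574152 to 65575549), which lies beside 5GT, stood at 133, 85.9 and 80.0 CPM in epicarp at 5 d and at 105, 99.5 and 71.0 CPM in mesocarp, with overlap. In control it stood at 114 ± 14.0 CPM against 0.0672 ± 0.0793 CPM, and its interaction was -10.57 (adjusted p = 1.06e-08). An ankyrin repeat gene (Solyc02g068615) stood at 8.30, 3.23 and 5.30 CPM against 18.3, 10.7 and 12.1 CPM at 5 d, and had interactions of -7.21 against control and of -8.55 against 0 d. In the other direction, BEL1-like homeodomain protein 4 (Solyc02g089940) stood at 5.42, 5.74 and 4.31 CPM against 16.04, 26.4 and 20.8 CPM at 5 d and at 0.251 ± 0.157 CPM against 19.3 ± 9.46 CPM in control, an interaction of 4.14 (adjusted p = 0.00143). MYB58 (Solyc11g073120) stood at 15.8, 10.7 and 6.39 CPM in epicarp at 5 d and at 0.168 ± 0.161 CPM in control epicarp (interaction 5.72), beside 34.2, 32.4 and 40.8 CPM in mesocarp. Its difference at 5 d was -1.72 (adjusted p = 0.0498), and no fit without a library, nor the replicate block (0.0577), called it. A beta-galactosidase (Solyc01g110000), a wall enzyme, stood at 138, 174 and 438 CPM against 51.1, 42.7 and 54.2 CPM at 5 d and at 40.2 ± 10.6 CPM against 66.6 ± 19.4 CPM in control (interaction 2.96, adjusted p = 0.0122), called in 11 of 12 fits without a library.

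Further genes named by rule had no read in control mesocarp, so their fitted interactions are no bound. A glycosyl hydrolase (Solyc04g072870) stood at 77.6, 70.5 and 77.7 CPM in epicarp at 5 d and at 30.1, 32.2 and 22.5 CPM in mesocarp, and at 90.3 ± 1.56 CPM in control epicarp; its difference at 5 d of 1.38 (adjusted p = 0.0384) was not called with the replicate block (0.0552) or in any fit without a library. SAG39 (Solyc02g062210), a senescence-linked cysteine protease, stood at 46.4, 27.3 and 13.6 CPM against 26.4, 19.3 and 10.1 CPM at 5 d, with overlap, and at 18.6 ± 2.24 CPM in control epicarp. A CRIB-domain gene (Solyc09g098425) stood at 58.9, 46.7 and 40.2 CPM against 32.5, 28.2 and 14.3 CPM, and an ammonium transporter gene (Solyc03g033300, sharing 1378 bases with a neighbour) at 19.4, 17.3 and 9.89 CPM against 4.82, 6.82 and 2.67 CPM. The latter difference of 1.68 was called only without epicarp replicate 3 or mesocarp replicate 2 among fits that left out a library. A cell wall protein gene (Solyc09g097770) stood at 111, 43.8 and 69.8 CPM against 30.3, 10.4 and 4.48 CPM and at 140 ± 194 CPM in control epicarp, and its interaction was called in 8 of 12 fits. On the other side, an HD-ZIP gene (Solyc01g090460, 3.00), an auxin transporter-like gene (Solyc11g013310, 2.41) and a low temperature and salt responsive gene (Solyc01g102290, 2.30) had higher differences at 5 d, called in 6, 12 and 9 of 12 fits.

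Against the earlier times few genes moved. From 0 d to 5 d, 17 genes (0.0866%) had a higher and 21 a lower tissue difference. A P-loop hydrolase gene (Solyc08g081740) stood at 21.4, 12.6 and 11.97 CPM in epicarp and at 2.41, 2.11 and 2.24 CPM in mesocarp at 5 d, whereas at 0 d the means were 0.033 and 0.808 CPM (interaction 7.03, adjusted p = 0.000268). A glycine-rich protein gene (Solyc10g009190) at 72.8 to 80.2 CPM against 1.06 to 1.67 CPM had an interaction of 6.30, an avirulence-factor-related gene (Solyc06g083080) one of 5.40 and the GDSL gene Solyc04g081755 one of 4.48. The hydrolase and the avirulence-factor-related gene were called in all 12 fits without a library, the other pair in 5. An O-methyltransferase-like gene (Solyc10g005060, 5.45) and a serine carboxypeptidase (Solyc04g079040, 4.74) were called in 4 of 12. On the lower side, the ankyrin gene was called in 12 of 12, a phospholipase A1 (Solyc08g078090, -5.20) in 4, and an L-ascorbate oxidase-like gene (Solyc02g090360, -4.38) and lipoxygenase D (Solyc03g122340, -4.22) in 2. The total of 38 was 10 without epicarp replicate 1 or 2 at 5 d, 13, 14 and 20 without mesocarp replicates 1, 2 and 3 at 5 d, 24 without mesocarp replicate 2 at 0 d, and 115, 69 and 101 without epicarp replicate 1, epicarp replicate 3 and mesocarp replicate 3 at 0 d. The 0 d libraries themselves varied widely, from 1092 to 12228 CPM in the summed epidermal markers of epicarp and from 45.7 to 878 CPM in those of mesocarp, and whether this bears on these calls was not tested.

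From 2 d to 5 d, 7 genes (0.0357%) had a lower tissue difference and none a higher one by edgeR, with 1019 genes at an unadjusted p under 0.05 and 73 called by DESeq2. A hypoxia-responsive family gene (Solyc06g050870) stood at 1.14, 1.30 and 1.70 CPM in epicarp and at 4.36, 5.55 and 7.37 CPM in mesocarp at 5 d, after 73.4 and 4.44 CPM at 2 d, an interaction of -6.07 (adjusted p = 0.000741) called in all 12 fits without a library. EMB8 (Solyc08g083080), a UDP-glucose 4-epimerase (Solyc02g030225) and a carbohydrate kinase (Solyc07g006780) had interactions of -1.94, -1.74 and -1.46, called in 6, 3 and 8 of 12 such fits. A Ypt/Rab-GAP gene (Solyc02g071420, sharing 222 bases with a neighbour) had an interaction of -3.06, called in 3 of 12, and stood at 80.2, 73.0 and 49.0 CPM against 26.6, 27.9 and 13.2 CPM at 5 d. The total of 7 was 1 to 4 without any 1 library but epicarp replicate 1 and mesocarp replicate 3 at 5 d and mesocarp replicate 2 at 2 d, without which it was 5. A glutamate decarboxylase (Solyc01g005000), which makes the amino acid GABA, stood at 0.745, 0.193 and 0.615 CPM in epicarp and at 71.0, 38.6 and 32.2 CPM in mesocarp at 5 d, after 45.9 and 79.0 CPM at 2 d. Its interaction of -5.69 (adjusted p = 0.0495) was called in none of the 12 fits and not with the replicate block (0.102), while its tissue difference at 5 d of -6.53 was called in every fit without a library.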

How the data were processed

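Per the labels' protocols, total RNA of epicarp and mesocarp was extracted with a mirVana kit and sequenced as 150-base read pairs. Trimmomatic 0.39, featureCounts and DESeq2 are named in the submitters' processing notes, while neither aligner nor strand setting is given in the sources used. The deposited table of read counts holds whole counts for 34688 genes on build SL4.0, not normalized by the authors, and the deposited TPM table holds 34689 genes, of which F3'5'H is only there. A pair of count columns share the name of mesocarp 2 d replicate 3 and none names mesocarp 5 d replicate 3, which left 2 count columns out of use. For both libraries, reads were recomputed as deposited TPM times gene length divided by 1 step per library, with 100% of genes whole within 0.01, and the same steps gave the deposited counts in the other libraries.

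Counts were fitted in R 4.3.3 with edgeR 4.0.16 (TMM, filterByExpr, 1 mean for each of 8 groups over 24 libraries, robust quasi-likelihood test, Benjamini-Hochberg adjustment over 19620 genes at 0.05). Differences are epicarp minus mesocarp on the log2 scale, and intervals are 95%. F3'5'H was fitted with limma 3.58.1 on log2(TPM + 1). DESeq2 1.42.0 was an alternative. Python 3.11.15, pandas 2.3.3, numpy 2.4.6 and matplotlib 3.10.9 handled tables and figures. The fits were tested on simulated data.

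At 5 d, deviations from the group means correlated at 0.305, 0.194 and 0.271 between same-numbered libraries of the tissues, across genes. Between libraries with different numbers the correlations were -0.269 to -0.0239. The main fit did not pair the tissues by number, and the block fits did. No label says what a number shares. Members of the anthocyanin, phenylpropanoid and flavonol lists were named. From each other list up to 6 called genes with the largest difference, at least 1 CPM and no overlap could be named. Outside the lists these were the 8 highest and 8 lowest with at least 10 CPM, and for each interaction the 6 highest and lowest, besides the cell type markers. Of 153 identifiers in 11 lists, 8 matched no gene and 2 were left out for their description. The other 20 lists were drawn by words in the descriptions, which were adjusted to the wording of the descriptions. Members, lists and rules were chosen with earlier results of these data known.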

Additional observations from a re-analysis of the deposited data

Results flagged for a closer look

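Each result here was picked out because the difference between skin and flesh at 5 d departed from that in another condition by edgeR's test of the interaction (limma on log2(TPM + 1) for F3'5'H), and values are differences of log2 differences. Against light-grown fruit, the skin-flesh difference was lower at 5 d in CHS1 (-10.27), MTP77 (-9.87), GST (-9.72), AAC (-9.71), 5GT (-9.45), DFR (-9.30), CHS2 (-8.74), F3'5'H (-8.49), ANS (-7.76), CHIL (-6.91), RT (-6.56), A3GT (-5.30), F3H (-4.84) and CHI (-3.80). Among regulators it was lower in AN1 (-8.59), MYB76 (-6.24), MYB-ATV (-5.67) and WRKY44 (-5.07). Among phenylpropanoid genes it was lower in PAL Solyc10g086180 (-5.03), Solyc09g007900 (-4.28) and Solyc09g007920 (-4.21) and in C4H Solyc06g150137 (-1.89).

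Against light-grown fruit, the glycosyltransferase Solyc12g098580 (-10.57), the ankyrin gene Solyc02g068615 (-7.21), the antenna gene Solyc03g005770 (-5.69), ABCG32 (-2.85) and EMB8 Solyc08g083080 (-1.71) also had a lower value at 5 d. So did the Ypt/Rab-GAP gene Solyc02g071420 (-8.54) and, with no read in control mesocarp and thus no bound, Solyc04g072870 (-12.42), Solyc09g097770 (-12.18), Solyc02g062210 (-10.89), Solyc03g033300 (-10.82) and Solyc09g098425 (-10.73). MYB58 Solyc11g073120 (5.72), BEL1-like 4 Solyc02g089940 (4.14) the HD-ZIP gene Solyc01g090460 (3.00), the beta-galactosidase Solyc01g110000 (2.96), Solyc11g013310 (2.41) and Solyc01g102290 (2.30) had a higher one. Against 0 d the value was lower in Solyc02g068615 (-8.55), Solyc08g078090 (-5.20), Solyc02g090360 (-4.38), Solyc03g122340 (-4.22), F3H (-4.18), A3GT (-4.01) and PAL Solyc09g007900 (-2.69), and higher in Solyc08g081740 (7.03), Solyc10g009190 (6.30), Solyc10g005060 (5.45), Solyc06g083080 (5.40), Solyc04g079040 (4.74), Solyc04g081755 (4.48) and Solyc08g083080 (1.56). Against 2 d it was lower in Solyc06g050870 (-6.07), Solyc01g005000 (-5.69), Solyc02g071420 (-3.06), Solyc08g083080 (-1.94), Solyc02g030225 (-1.74) and Solyc07g006780 (-1.46).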

How the results depend on the processing

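The 3432 calls at 5 d became 1012 when a minimum fold of 2 was tested, and ranged from 2162 to 2667 without 1 library. The 191 interactions with light-grown control became 549 with DESeq2, 393 with limma on log2(TPM + 1), 74 with a minimum fold of 2 and 463 with only the groups compared (104 to 180 without 1 library); limma put 59.3% of them on the higher side, against 22% in edgeR. The 38 interactions with 0 d became 280 (DESeq2), 77 (limma), 23 (no filter), 5 (minimum fold of 2), 1 (only the groups compared) and 373 (replicate block), with 10 to 115 without 1 library. The 7 with 2 d became 73, 27, 1 and 15 with DESeq2, limma, a minimum fold of 2 and only the groups compared, and 1 to 5 without 1 library. Cuticle calls fell from 13 to 8 with a minimum fold of 2 (8 to 12 without 1 library), and anthocyanin genes called higher stayed at 1 except for 4 in the added fit. The count of lower vascular genes (8 to 9 without 1 library) and that of anthocyanin interactions with control (11 to 13) stayed within 1.5 times in the settings run. The causes were not tested.

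With replicate number as a block, 3159 genes passed at 5 d and 141 interactions with control. F3'5'H kept a difference of 0.74 and passed, and it ranged from 0.36 to 1.14 without 1 library. Limited to the 6 libraries, a block fit chosen after seeing the data called 4700. The planned block changed the call at 5 d of F3'5'H, AN11, MYB76, CD3, GPAT6, Solyc06g035580, MYB58, Solyc04g072870 and Solyc04g079040 among the genes named, and of no other; among their interactions with control it ended those of CHS2, CHI and WRKY44 and added AN11.

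Signs changed across fits without a library in F3H (-0.02 to 0.55), DFR (-0.06 to 0.45), ANS (-0.46 to 0.14), AAC (-0.22 to 0.35, and -0.01 in the added block fit), PAL Solyc09g007920 (-0.09 to 0.40), PAL Solyc10g086180 (-0.42 to 0.33, and 0.03 with limma) and Solyc12g098580 (-0.21 to 0.25), of which none was called. DESeq2's size factors in edgeR moved the median difference of all genes by -0.02.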
